A study of Mus musculus with 12 samples.

Results

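The 10 genes described here encode the transcription factor NRF2 (Nfe2l2), its inhibitor KEAP1 (Keap1) and 8 enzymes of the antioxidant and glutathione systems (Nqo1, Gclc, Gclm, Gsr, Txnrd1, Srxn1, Prdx1 and Gpx1). They were taken by gene name from a table of 54446 genes, and all 10 passed the filter on low counts that left 14724 genes to be tested. The RNA came from NIH3T3 cells, an established mouse embryonic fibroblast line, and from ΔN-VEGF cells derived from it, in which both alleles had lost the coding sequence of N-VEGF, the N-terminal extension that is made from an upstream start codon of Vegfa. The deletion was made with Cas9 and donor cassettes that were later excised, the cells came from isolated clones, and how many clones stand behind the sequenced line is not stated. The 4 groups were wild type (WT) in normoxia, WT in hypoxia, ΔN-VEGF in normoxia and ΔN-VEGF in hypoxia, where hypoxia was 16 h below 0.2% oxygen, with 3 samples in each group.

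NRF2 is a basic leucine zipper factor that is bound by KEAP1 and passed to the proteasome in unstressed cells. When electrophiles or oxidants modify cysteines of KEAP1, NRF2 escapes degradation, pairs with small MAF proteins and activates genes through the antioxidant response element. Its targets make glutathione, reduce it again after use, regenerate thioredoxin and peroxiredoxin, and detoxify quinones. The control of NRF2 acts mainly on the protein, so the mRNA level of Nfe2l2 is not a measure of its activity.

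Promoter windows from RefSeq (build GRCm38.p6, 250 bases before to 50 after each transcription start) were at hand for 8 of the 10 genes and not for Gclc and Gsr, and the 250 bases before the start were searched. The core of the antioxidant response element, searched as TGACNNNGC on both strands, occurred in the windows of 4 of the 8 genes (Nfe2l2, Gclm, Txnrd1 and Prdx1) and in those of 11.5% of all 27025 genes with a window. The related AP-1 site TGANTCA occurred in 2 of the 8 (Srxn1 and Prdx1) and in 7.82% of all genes, and the hypoxia response element core ACGTG in 3 of the 8 (Keap1, Gclm and Gpx1) and in 18.5% of all genes. In Prdx1 an antioxidant response element core and an AP-1 site share bases. The antioxidant response element cores of 3 target genes followed below, and the AP-1 sites of Srxn1, are printed in the direction of the gene, with the matched bases in capitals. Matches that are not printed are the core of Nfe2l2, another AP-1 site of Prdx1 (237 to 231 before the start) and the hypoxia response element cores. In the first 3 sequences the core lies on the opposite strand, so that the capitals are its reverse complement, and in Srxn1 the capitals are the AP-1 sites. With the gc that follows it, the proximal Srxn1 site differs from the searched core only by a G in place of the C after TGA. The search therefore did not count it as a core.
Gclm: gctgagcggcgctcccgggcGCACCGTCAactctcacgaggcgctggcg
Txnrd1: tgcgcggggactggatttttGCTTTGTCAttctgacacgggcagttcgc
Prdx1: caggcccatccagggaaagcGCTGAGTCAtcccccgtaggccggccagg
Srxn1, distal site: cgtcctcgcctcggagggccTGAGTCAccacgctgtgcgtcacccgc
Srxn1, proximal site: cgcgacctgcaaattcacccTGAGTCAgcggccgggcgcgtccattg

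These stretches lie at chr3:122245403-122245451 (Gclm, matched bases 134 to 126 before the start), chr10:82859094-82859142 (Txnrd1, 92 to 84 before the start of 1 of its 3 windows) and chr4:116685446-116685494 (Prdx1, 133 to 125 before the start). The Srxn1 sites lie at chr2:152105402-152105448 (102 to 96 before the start) and chr2:152105459-152105505 (45 to 39 before the start), and all are on the plus strand of the genome. A match is a description of the letters and does not show that a factor binds there.

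Between 30519052 and 43056690 reads per sample were assigned to genes, and levels are given as CPM, the usual scaling of counts to library size, with TMM factors of 0.83 to 1.21. Samples of a group correlated at 0.986 to 0.996 across genes (Pearson's r of log2 CPM), except that the library labelled WT normoxia replicate 2 correlated at 0.956 and 0.957 with the other samples of its group and at 0.975 to 0.984 with the ΔN-VEGF normoxia samples. At 11 genes that differed by at least 3 on the log2 scale between the lines in the other samples of both conditions, this library lay nearer to WT at 11 and nearer to ΔN-VEGF at 0. Results that rest on it are given with and without it. The summed level of 8 fibroblast markers was 17000 to 42900 CPM, and that of 4 epithelial markers 2.2 to 10 CPM, with Epcam at 0 in the samples of all 4 groups. Endothelial markers (3 genes) summed to 1.82 to 25.2 CPM and leukocyte markers (4 genes) to 18.7 to 58.6 CPM. These 2 sums were highest in ΔN-VEGF hypoxia, each through 1 gene: Cdh5 was at 19.4 to 24.4 CPM there and at 1.28 to 7.29 CPM elsewhere, and Csf1r at 50.1 to 53.8 CPM there and at 0.845 to 30.1 CPM elsewhere. The defining leukocyte marker Ptprc was at 0 to 0.0685 CPM in all groups, and Cd14 was lowest in ΔN-VEGF hypoxia (3.83 to 5 CPM). The fibroblast sum was also highest there, while its members Pdgfra, Pdgfrb, Thy1 and S100a4 were not. The lowest fibroblast sum was that of WT normoxia replicate 2. There Pdgfra was at 168 CPM against 927 and 908 CPM in replicates 1 and 3. Col1a1, Col1a2, Fn1, Pdgfrb and Thy1 were also lower than in those replicates, while Vim and S100a4 were higher. The part of these markers in the results was not tested. A list of 10 hypoxia-response genes summed to 1380 to 2630 CPM in normoxia and 12400 to 15800 CPM in hypoxia, with the WT normoxia value of 2630 in the library that stands apart. In that library Slc2a1, Bnip3, Ankrd37, Ldha and Pgk1 lay above replicates 1 and 3 of its group. Ldha, for example, was at 1380 against 471 and 454 CPM. Car9, Ndrg1, Pdk1 and Adm lay below them, with Ndrg1 at 148 against 328 and 316 CPM, and Egln3 lay between them. Vegfa counts cover the whole gene and do not check the deletion: Vegfa was at 39.4 to 86.2 CPM in WT normoxia, 272 to 291 in WT hypoxia, 34.2 to 37.3 in ΔN-VEGF normoxia and 419 to 437 in ΔN-VEGF hypoxia.

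Per length of transcript, Prdx1 was the most abundant of the 10 genes in each group, with group means of 87.3 to 172 RPKM (CPM divided by the exon length in kilobases). Gclc and Keap1 were the least abundant in normoxia, by group mean, at 11.4 and 13.1 RPKM in WT and both at 11.7 RPKM in ΔN-VEGF cells. In replicates 1 and 3 of WT normoxia, however, Gclm was the lowest, at 7.81 and 8.07 RPKM against 8.53 and 8.65 for Gclc and 11.4 and 10.7 for Keap1. In hypoxia the lowest were Gclm at 10.3 RPKM in WT cells and Nqo1 at 13.9 RPKM in ΔN-VEGF cells, where its samples overlapped with those of Gclc (14.1) and Keap1 (14.5). In hypoxia the 3 samples of a group were close to each other for each of the 10 genes, with the highest no more than 1.13 times the lowest. A lower level in such bulk samples can come from fewer cells that make the RNA or from less RNA per cell, which cannot be told apart. In WT normoxia the highest sample was between 1.12 times (Nfe2l2) and 3.92 times (Gsr) the lowest, and for each of the 9 genes other than Nfe2l2 the highest sample was replicate 2.

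**Figure D1:**
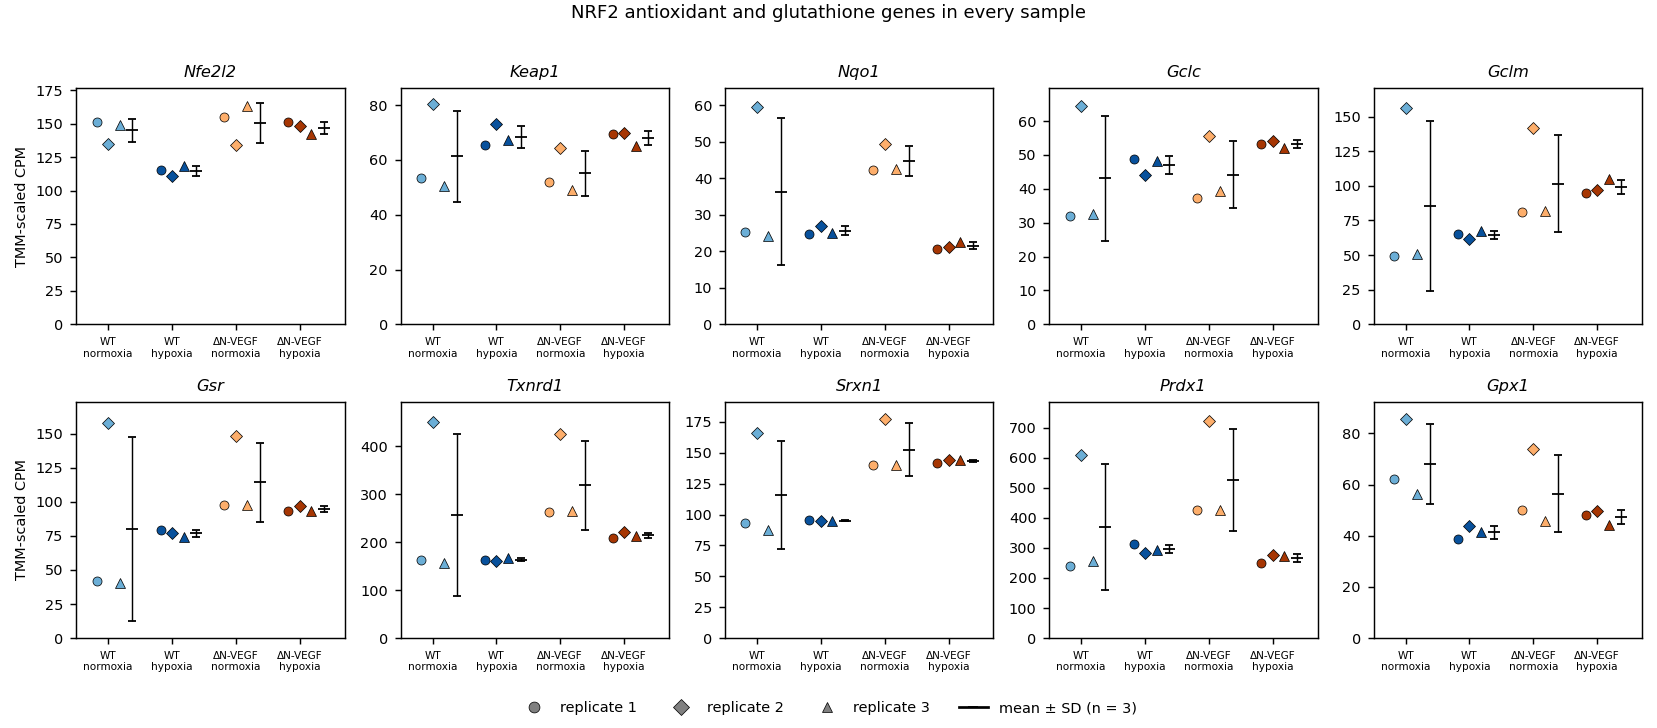
Levels of the 10 genes in TMM-scaled CPM (vertical axes from 0) in the 4 groups (horizontal axes), with 1 point per sample, its shape giving the replicate number, and the mean ± SD of 3 samples in black. In normoxia replicate 2 lies above replicates 1 and 3 in both lines for the 9 genes other than Nfe2l2, for example 158 against 40.3 and 42.2 CPM for Gsr in WT cells.

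Nfe2l2 itself (gene ENSMUSG00000015839, chr2:75675513-75704641, minus strand) had a lower mRNA level in WT cells after hypoxia, and ΔN-VEGF cells in hypoxia held more of it than WT cells. It measured 151, 135 and 149 CPM in the 3 WT normoxia samples and 115, 111 and 118 CPM in WT hypoxia. In ΔN-VEGF cells it measured 155, 134 and 163 CPM in normoxia and 151, 148 and 142 CPM in hypoxia. The WT hypoxia samples lay below those of every other group, and the ΔN-VEGF samples of the 2 conditions overlapped. By edgeR's quasi-likelihood test the fall in WT hypoxia was -0.34 on the log2 scale (SE 0.09, adjusted p = 0.014), while the change in ΔN-VEGF cells was -0.03 (SE 0.09, adjusted p = 0.78). Scaled by total counts alone it fell in both lines, with log2 changes of -0.57 in WT (adjusted p = 0.0034) and -0.44 in the deleted line (adjusted p = 0.0095). In hypoxia Nfe2l2 was 1.28 times as high in ΔN-VEGF as in WT cells (log2 difference 0.36, SE 0.09, adjusted p = 0.02, edgeR). The difference between the 2 responses was 0.30 (SE 0.13, adjusted p = 0.21) and did not pass the test. The difference between the lines in hypoxia lost its call without any 1 of the 6 hypoxia samples (adjusted p = 0.053 to 0.079), when scaled by total counts (0.14, adjusted p = 0.45) and without a filter on low counts (0.35, adjusted p = 0.091), and the fall in WT cells lost it without replicate 2 of WT hypoxia (-0.31, adjusted p = 0.051), with only the 2 WT groups fitted (-0.36, adjusted p = 0.054) and without a filter on low counts (-0.35, adjusted p = 0.058).

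Keap1 (ENSMUSG00000003308, chr9:21229730-21239361, minus strand), whose protein is the adaptor that hands NRF2 to a CUL3 ubiquitin ligase, passed the test in 0 comparisons over all samples. Its level was 53.3, 80.4 and 50.3 CPM in WT normoxia and 65.3, 72.9 and 67.1 CPM in WT hypoxia. The ΔN-VEGF samples gave 51.9, 64.3 and 49.0 CPM in normoxia and 69.4, 69.8 and 65.2 CPM in hypoxia. The hypoxia samples of ΔN-VEGF cells lay above their normoxia samples, and in WT cells replicate 2 of normoxia was the highest of all 12. The edgeR log2 changes in hypoxia were 0.16 in WT (SE 0.17, adjusted p = 0.49) and 0.31 in ΔN-VEGF cells (SE 0.17, adjusted p = 0.15). With the replicate number as a block the latter was 0.32 (adjusted p = 0.049). Exons of the antisense gene Gm16754 cover 10.9% of the exon length of Keap1 (510 bases), and reads there cannot be assigned to a strand.

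The subunits of glutamate-cysteine ligase, the enzyme that sets the pace of glutathione synthesis, are the catalytic Gclc (ENSMUSG00000032350, chr9:77754535-77794485) and the modifier Gclm (ENSMUSG00000028124, chr3:122245557-122270732). Gclc measured 32.1, 64.5 and 32.6 CPM in WT normoxia, 48.8, 44.1 and 48.3 in WT hypoxia, 37.4, 55.5 and 39.5 in ΔN-VEGF normoxia and 53.3, 54.2 and 52.0 in ΔN-VEGF hypoxia. In both lines the hypoxia samples lay above replicates 1 and 3 of normoxia and below replicate 2. Gclm measured 49.1, 156 and 50.7 CPM in WT normoxia, 65.0, 61.4 and 67.2 in WT hypoxia, 80.8, 142 and 81.9 in ΔN-VEGF normoxia and 95.0, 97.1 and 105 in ΔN-VEGF hypoxia. Again replicate 2 was the high sample of both normoxia groups, and the ΔN-VEGF hypoxia samples were all above the WT hypoxia samples. Over all samples neither subunit passed the test in any comparison: the log2 changes in hypoxia were 0.13 (SE 0.25) and 0.27 (SE 0.25) for Gclc in WT and ΔN-VEGF cells, and -0.40 (SE 0.39) and -0.04 (SE 0.39) for Gclm. Without the library that stands apart the changes in WT hypoxia were 0.55 for Gclc (SE 0.14, adjusted p = 0.0045, edgeR) and 0.38 for Gclm (SE 0.19, adjusted p = 0.12), so that the sign of Gclm turned. Gclm shares 3.42% of its 80-base stretches, the read length, with transcripts of other genes, among them Ppia and the pseudogene Gm6061, so reads there cannot be assigned to 1 gene and its count is uncertain.

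Glutathione reductase, Gsr (ENSMUSG00000031584, chr8:33652523-33698163), returns oxidized glutathione to its reduced form with NADPH. It had the widest spread of the 10 genes: 42.2, 158 and 40.3 CPM in WT normoxia against 79.4, 77.0 and 74.3 CPM in WT hypoxia. ΔN-VEGF cells had 97.5, 148 and 98.0 CPM in normoxia and 93.4, 97.3 and 93.2 CPM in hypoxia. Replicates 1 and 3 of WT normoxia were the lowest of all 12 samples, and those of ΔN-VEGF normoxia were well above them. The edgeR log2 difference between the lines in normoxia was 0.51 (SE 0.43, adjusted p = 0.57) over all samples and 1.48 (SE 0.15, adjusted p = 1.4e-05) without the WT library that stands apart.

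In the thioredoxin branch replicate 2 of normoxia was again the highest sample of both lines. Txnrd1 (ENSMUSG00000020250, chr10:82833951-82897712), the selenoprotein that reduces cytosolic thioredoxin, measured 163, 452 and 157 CPM in WT normoxia and 163, 161 and 167 CPM in WT hypoxia. The level in ΔN-VEGF cells was 264, 427 and 265 CPM in normoxia and 210, 221 and 213 CPM in hypoxia. Without the 2 normoxia libraries numbered 2, the WT samples of both conditions were level, while in ΔN-VEGF cells each hypoxia sample lay below each normoxia sample. The log2 change in ΔN-VEGF hypoxia was -0.57 (SE 0.35, adjusted p = 0.19, edgeR) over all samples and -0.31 (SE 0.05, adjusted p = 2e-05) without those 2 libraries.

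Prdx1 (ENSMUSG00000028691, chr4:116685544-116700822), a peroxiredoxin that removes hydrogen peroxide, measured 239, 610 and 257 CPM in WT normoxia and 312, 283 and 294 CPM in WT hypoxia. In the deleted line it measured 426, 721 and 427 CPM in normoxia and 250, 275 and 273 CPM in hypoxia, with no overlap between the conditions. It fell in ΔN-VEGF hypoxia by 0.98 on the log2 scale (SE 0.32, adjusted p = 0.025, edgeR), and the call was lost without replicate 2 of ΔN-VEGF normoxia (-0.69, adjusted p = 0.11) or without any 1 of the 3 ΔN-VEGF hypoxia samples (adjusted p = 0.06 to 0.076). Prdx1 shares 3.23% of its 80-base stretches with the genes Gm21399 and Gm7204. Srxn1 (ENSMUSG00000032802, chr2:152105516-152111376) encodes sulfiredoxin, which repairs over-oxidized peroxiredoxins. It measured 93.1, 166 and 87.6 CPM in WT normoxia and 95.4, 95.0 and 94.7 CPM in WT hypoxia. ΔN-VEGF cells gave 140, 177 and 140 CPM in normoxia and 142, 144 and 144 CPM in hypoxia. Leaving aside the normoxia libraries numbered 2, each ΔN-VEGF sample of Srxn1 lay above each WT sample, and the conditions of a line lay close together.

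Nqo1 (ENSMUSG00000003849, chr8:107388225-107403206, minus strand), the quinone reductase that is a standard readout of NRF2, measured 25.2, 59.5 and 24.3 CPM in WT normoxia and 24.8, 27.0 and 25.1 CPM in WT hypoxia. In ΔN-VEGF cells it was at 42.3, 49.3 and 42.5 CPM in normoxia and at 20.7, 21.3 and 22.6 CPM in hypoxia. Every ΔN-VEGF hypoxia sample was below every other sample of the 12. The fall in ΔN-VEGF hypoxia was -1.05 on the log2 scale (SE 0.28, adjusted p = 0.0088, edgeR), that is 2.08-fold, and it passed the test without any 1 sample (-1.1 to -0.98). In WT cells the change was -0.50 (SE 0.28, adjusted p = 0.18) over all samples and 0.05 (SE 0.09, adjusted p = 0.63) without the library that stands apart.

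Gpx1 (ENSMUSG00000063856, chr9:108338903-108340343), a selenoprotein that spends glutathione to reduce peroxides, was lower in WT cells after hypoxia. It measured 62.1, 85.7 and 56.5 CPM in WT normoxia and 38.7, 43.8 and 41.5 CPM in WT hypoxia, without overlap. In ΔN-VEGF cells it measured 49.9, 73.8 and 45.7 CPM in normoxia and 48.1, 49.8 and 44.4 CPM in hypoxia, where the conditions overlapped. The edgeR log2 changes were -0.72 in WT (SE 0.19, adjusted p = 0.012) and -0.25 in ΔN-VEGF cells (SE 0.19, adjusted p = 0.29), and the difference of the responses was 0.47 (SE 0.27, adjusted p = 0.35). With total counts alone Gpx1 fell in both lines, with -0.93 in WT (adjusted p = 0.00052) and -0.65 in the deleted line (adjusted p = 0.003, edgeR). Without the library that stands apart the WT value was -0.52 (SE 0.16, adjusted p = 0.015), and without replicate 1 of WT hypoxia it was -0.68 (adjusted p = 0.052).

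Replicate 2 of normoxia differed from replicates 1 and 3 in these genes in both lines. In WT cells it exceeded their mean by 1.94 on the log2 scale for Gsr, 1.64 for Gclm, 1.5 for Txnrd1, 1.30 for Prdx1 and 1.26 for Nqo1, and by 0.53 to 0.99 for Gpx1, Keap1, Srxn1 and Gclc. The median over the 10 genes was 1.12, beside 0.01 over all tested genes, of which 11.6% exceeded 1. In ΔN-VEGF normoxia the median was 0.56, beside 0.03 over all genes, with 0.80 for Gclm, 0.76 for Prdx1 and 0.69 for Txnrd1. In the hypoxia groups the medians were -0.01 and 0.04. Nfe2l2 was lower in replicate 2 of normoxia in both lines, by 0.15 in WT and 0.25 in ΔN-VEGF cells on the log2 scale. Over the 114 tested genes of the wider pathway list the median was 0.14 in WT and 0.06 in ΔN-VEGF normoxia. What set these libraries apart is not given in the sources used here and was not tested.

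**Figure D2:**
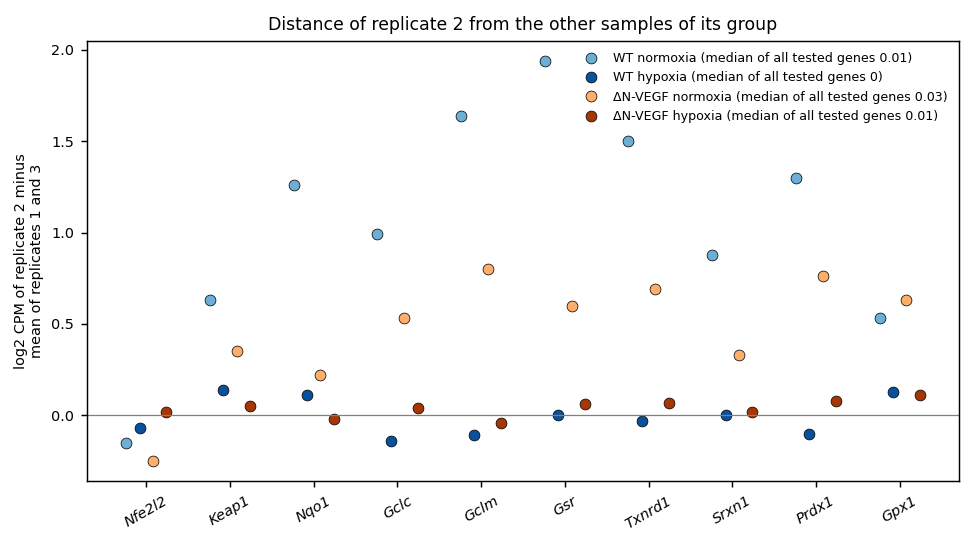
Log2 CPM of replicate 2 minus the mean of replicates 1 and 3 (vertical axis) for each of the 10 genes (horizontal axis), with 1 point per group. WT normoxia reaches 1.94 at Gsr and ΔN-VEGF normoxia 0.80 at Gclm, while the 2 hypoxia groups stay between -0.14 and 0.14.

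The first comparison asked how hypoxia changed these genes in WT cells. Over all samples 2 of the 10 genes fell, Nfe2l2 and Gpx1, and 0 rose, where 18.3% of all tested genes fell and 18.2% rose. DESeq2 called the same 2 genes and 0 that rose, where it called 17.2% of its tested genes lower and 16.7% higher, and at an unadjusted p under 0.05 by edgeR 0 rose as well. The share of all tested genes at that unadjusted threshold was not counted, here or in the later comparisons. Such counts therefore cannot be read against it. The median log2 change of the 10 was -0.33, beside -0.07 over all genes. Without the library labelled WT normoxia replicate 2 the same 2 genes fell and 3 rose, namely Gsr by 0.90 (SE 0.15, adjusted p = 0.00023, edgeR), Gclc by 0.55 (SE 0.14, adjusted p = 0.0045) and Keap1 by 0.41 (SE 0.11, adjusted p = 0.006), where 26.9% of all tested genes fell and 27.1% rose. The median of the 10 then became 0.17, beside 0 over all genes. With replicate 2 of ΔN-VEGF normoxia left out as well, Gclm (0.38) and Prdx1 (0.26) rose too, where 32.5% of all tested genes fell and 32.8% rose. Scaled by total counts alone, all genes shifted to a median of -0.30, and 5 of the 10 fell (Nqo1, Txnrd1 and Srxn1 beside Nfe2l2 and Gpx1) and 0 rose, where 32.7% of all tested genes fell and 12.8% rose.

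In ΔN-VEGF cells hypoxia lowered Nqo1 and Prdx1 and raised 0 of the 10, where 26.4% of all tested genes fell and 26.9% rose. DESeq2 called the same 2 genes, where 20.7% of its tested genes fell and 22.5% rose, and 0 rose by DESeq2 or at an unadjusted p under 0.05 by edgeR. The median log2 change was -0.17, beside -0.01 over all genes. Without the library labelled WT normoxia replicate 2 alone, Txnrd1 fell as well (-0.58, SE 0.15, adjusted p = 0.0033) and Keap1 rose (0.30, SE 0.09, adjusted p = 0.013, edgeR), where 34.3% of all tested genes fell and 32.8% rose. Without both normoxia libraries numbered 2, 3 fell (Nqo1 -0.98, Prdx1 -0.69 and Txnrd1 -0.31) and 3 rose (Gclc 0.46, Keap1 0.43 and Gclm 0.28), each with an SE of 0.05 to 0.07 and an adjusted p of at most 0.00036 by edgeR, where 36% of all tested genes fell and 35.4% rose. Scaled by total counts alone, all genes shifted to a median of -0.41, and 6 of the 10 fell (Nfe2l2, Txnrd1, Srxn1 and Gpx1 beside Nqo1 and Prdx1) and 0 rose, where 44.5% of all tested genes fell and 15.3% rose. The 5 comparisons share samples, and those that use the same group are not independent of each other. The WT normoxia group, for example, enters both the change in WT hypoxia and the difference between the lines in normoxia.

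The second question was whether the lines differed before hypoxia. Over all samples 0 of the 10 genes was higher and 0 lower in ΔN-VEGF than in WT normoxia at an adjusted p under 0.05, where 1.39% of all tested genes were higher and 2.97% lower. At an unadjusted p under 0.05 the counts were also 0 and 0, and DESeq2 called 0 and 0, where 2.69% of its tested genes were higher and 5.47% lower. The WT and ΔN-VEGF samples overlapped at each of the 10, and for each but Nfe2l2 the highest WT sample was replicate 2. How many of all tested genes overlapped in this way was not counted, so the 10 cannot be set against it. Without the library labelled WT normoxia replicate 2, 7 were higher and 0 lower, where 25.7% of all tested genes were higher and 23.2% lower. The 7 were Gsr (log2 difference 1.48), Prdx1 (1.09), Gclm (1.04), Txnrd1 (1.01), Nqo1 (0.87), Srxn1 (0.77) and Gclc (0.46), with SEs of 0.09 to 0.19, and their median with the other 3 was 0.82, beside 0 over all genes. Leaving out replicate 2 of ΔN-VEGF normoxia as well gave the same 7 at 0.26 (Gclc) to 1.26 (Gsr) and a lower Gpx1 (-0.30, SE 0.08, adjusted p = 0.0024, edgeR), where 27.8% of all tested genes were higher and 25.8% lower. Nfe2l2 and Keap1 were within 0.10 of 0 in both of these fits. The count for normoxia thus turns on 1 of 12 libraries.

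In hypoxia, where no library stood apart, the lines differed by small amounts. The direction turned for Gclc and Gpx1 when scaled by total counts, while the other genes kept theirs. With TMM factors the samples did not overlap for 9 of the 10 genes: 7 were higher in each ΔN-VEGF sample than in any WT sample (Nfe2l2, Gclc, Gclm, Gsr, Txnrd1, Srxn1 and Gpx1) and 2 lower (Nqo1 and Prdx1), where 29.7% and 30.1% of all tested genes were separated in this way. By the edgeR test over 12 samples 1 of the 10 was higher, Nfe2l2, and 0 lower, where 10.8% of all tested genes were higher and 9.36% lower. DESeq2 called Nfe2l2 and Srxn1 higher and 0 lower, where 12% of its tested genes were higher and 9.81% lower, and at an unadjusted p under 0.05 by edgeR 0 were lower. Scaled by total counts alone, all genes shifted to a median of -0.23, 5 of the 10 had a positive and 5 a negative difference, with Gclc at -0.05, Gpx1 at -0.02 and Gsr at 0.08, and 0 were called higher and 0 lower, where 4.57% of all tested genes were higher and 22.2% lower. When the library labelled WT normoxia replicate 2 was left out, 4 were higher (Nfe2l2 0.35, Gclm 0.62, Txnrd1 0.39 and Srxn1 0.59, adjusted p of 0.00014 to 0.045 by edgeR) and Nqo1 was lower (-0.25, SE 0.08, adjusted p = 0.024), where 21.2% of all tested genes were higher and 21.2% lower. Over all 12 samples Srxn1 (log2 difference 0.59, SE 0.21) had an adjusted p of 0.066, and 0.04 with the replicate number as a block. When the 6 hypoxia samples were fitted alone, so that the spread of the normoxia groups did not enter, all 7 were higher and both others lower, where 27.9% of all tested genes were higher and 29.1% lower. The log2 differences were then 0.61 for Gclm, 0.58 for Srxn1, 0.39 for Txnrd1, 0.35 for Nfe2l2, 0.29 for Gsr, 0.19 for Gpx1 and 0.17 for Gclc, against -0.26 for Nqo1 and -0.17 for Prdx1, each with an SE of 0.05 to 0.07. Keap1 differed by -0.01 (SE 0.06, adjusted p = 0.88). Without both normoxia libraries numbered 2 these 7 were likewise higher and both others lower, where 27.5% of all tested genes were higher and 28.3% lower.

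**Figure D3:**
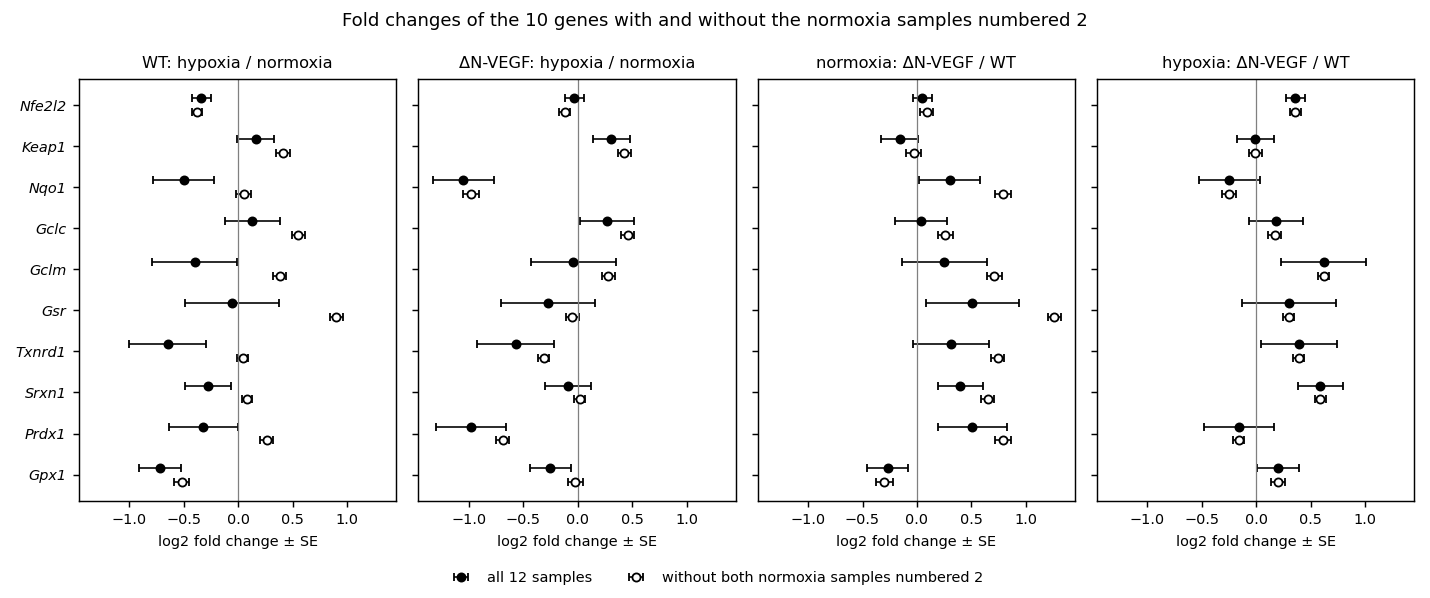
Log2 fold changes (horizontal axes) with their standard errors for the 10 genes in 4 comparisons, from the fit of all 12 samples (filled) and from the fit without both normoxia samples numbered 2 (open). In normoxia the difference between the lines of Gsr moves from 0.51 to 1.26, while in hypoxia the differences of the 2 fits lie within 0.01 of each other, with smaller errors for the second.

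The last comparison was between the responses of the 2 lines to hypoxia. It took the log2 change in ΔN-VEGF cells minus that in WT cells, so that a positive difference is a larger rise or a smaller fall in ΔN-VEGF cells and a negative one a smaller rise or a larger fall. Over all samples 0 of the 10 genes had a positive and 0 a negative difference that passed edgeR's interaction test, where 2.21% of all tested genes had a positive and 1.15% a negative one. At an unadjusted p under 0.05 it was 1 positive (Nfe2l2) and 0 negative, and DESeq2 called 0 and 0, where 6.99% of its tested genes had a positive and 3.33% a negative one. The share of all tested genes at the unadjusted threshold was not counted. The differences ranged from -0.67 for Prdx1 (SE 0.46) to 0.47 for Gpx1 (SE 0.27). Without the library labelled WT normoxia replicate 2, the difference passed the test for 5 genes, positive for Nfe2l2 (0.34) and negative for Prdx1 (-1.25), Gsr (-1.19), Nqo1 (-1.12) and Txnrd1 (-0.62), where 21.4% of all tested genes had a positive and 23% a negative one that passed. Without both normoxia libraries numbered 2 the same 5 genes passed in the same directions and Gpx1 had a positive difference (0.50, SE 0.10), where 25.8% of all tested genes had a positive and 27% a negative one. For Nfe2l2 the fit without the WT library combines a fall of -0.38 in WT hypoxia with -0.04 in ΔN-VEGF hypoxia, and for Nqo1 a value of 0.05 with a fall of -1.06. For Gsr it combines a rise in WT hypoxia with a value of -0.28 (SE 0.13, adjusted p = 0.07, edgeR) in ΔN-VEGF hypoxia.

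Another 127 genes around NRF2 were followed as a list, of which 114 were tested. Hypoxia raised 23 and lowered 29 of them in WT cells and raised 30 and lowered 37 in ΔN-VEGF cells, with median log2 changes of -0.04 and -0.05. Of all tested genes 18.2% rose and 18.3% fell in WT and 26.9% rose and 26.4% fell in ΔN-VEGF cells. Leaving out the library labelled WT normoxia replicate 2 gave 41 rises and 40 falls of 115 tested in WT cells, where 27.1% of all tested genes rose and 26.9% fell, and 40 and 43 in ΔN-VEGF cells, where 32.8% rose and 34.3% fell. The counts by role that follow are to be read against the shares of the same fit. Of 13 regulators of NRF2, 5 rose and 0 fell in WT cells and 7 rose and 1 fell in ΔN-VEGF cells, and without that library 8 rose and 1 fell in WT and 9 rose and 1 fell in ΔN-VEGF cells. Of 29 detoxification enzymes and exporters, 2 rose and 13 fell in each line, and without that library 4 of 30 rose in each line while 19 fell in WT and 15 in ΔN-VEGF cells.

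Among the regulators, Maff, which encodes a small MAF partner of NRF2, had the largest rise in both lines, from 18.2, 39.2 and 18.5 CPM to 150, 160 and 155 CPM in WT cells (log2 change 2.62, SE 0.25, adjusted p = 1.7e-05, edgeR) and from 30.2, 31.7 and 28.2 CPM to 195, 199 and 200 CPM in ΔN-VEGF cells (2.72, SE 0.25). The regulator that fell in ΔN-VEGF cells was Rbx1, a subunit of the CUL3 ligase (-0.49, SE 0.18, adjusted p = 0.04). Maff did not overlap between the conditions in either line.

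The largest rise of the list was that of Hmox1, heme oxygenase 1, which degrades heme and answers to NRF2 and to other stress factors. It rose from 35.3, 43.7 and 31.7 CPM to 384, 402 and 390 CPM in WT cells (log2 change 3.41, SE 0.14, adjusted p = 3.5e-08, edgeR) and from 46.5, 59.5 and 46.9 CPM to 1060, 999 and 1030 CPM in ΔN-VEGF cells (4.34, SE 0.15, adjusted p = 4.7e-09). In its group of 8 tested targets 3 rose and 2 fell in each line, Hmox1 included (3 and 3 in WT and 3 and 4 in ΔN-VEGF cells without the library that stands apart), and Fth1, the heavy chain of the iron store ferritin, fell in WT cells (-0.60, SE 0.08). In ΔN-VEGF cells Osgin1, oxidative stress induced growth inhibitor 1, fell from a mean of 10.1 to 4.8 CPM (-1.07, SE 0.18, adjusted p = 0.00053, edgeR).

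In the glutathione group of 15 tested genes, 2 rose and 3 fell in WT and 4 rose and 4 fell in ΔN-VEGF cells. Without the library that stands apart 5 rose and 3 fell in WT, Slc7a11, Chac1, Glrx, Glrx3 and Esd being the 5, and 5 rose and 6 fell in ΔN-VEGF cells. Chac1, which breaks glutathione down, rose in both (1.55, SE 0.36, in WT and 2.66, SE 0.38, in ΔN-VEGF cells), and Glrx5, a mitochondrial glutaredoxin, fell in both (-1.08, SE 0.34, and -1.40, SE 0.35). Without the library labelled WT normoxia replicate 2 the WT value of Glrx5 was -0.44 (SE 0.17, adjusted p = 0.042, edgeR). Of 16 tested genes of the thioredoxin and peroxiredoxin system, 6 rose and 3 fell in WT (9 and 4 without that library) and 7 rose and 5 fell in ΔN-VEGF cells (9 and 5). Sesn2, a stress-induced sestrin, rose from 47.8, 34.5 and 44.5 CPM to 131, 148 and 132 CPM in WT cells (1.70, SE 0.12) and from 36.2, 33.1 and 33.6 CPM to 276, 262 and 267 CPM in ΔN-VEGF cells (2.97, SE 0.13). Among the sestrins, Sesn3 fell in WT (-1.52, SE 0.53, adjusted p = 0.043, edgeR), with overlapping samples and an adjusted p of 0.065 under the replicate block, and Sesn1 in ΔN-VEGF cells (-0.99, SE 0.29).

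Of 9 tested peroxidases, catalase and dismutases, 2 rose and 2 fell in WT and 2 rose and 3 fell in ΔN-VEGF cells, and without the library that stands apart 3 rose and 3 fell in each line. Cat, catalase, rose in WT (0.85, SE 0.08) and ΔN-VEGF cells (0.71, SE 0.08), and Sod3, the extracellular superoxide dismutase, fell (-2.03, SE 0.39, and -2.81, SE 0.40). In normoxia Sod3 was lower in replicate 2 of both lines, at 14.4 CPM against 39.1 and 33.6 CPM in WT and at 18.4 CPM against 46.8 and 45.8 CPM in ΔN-VEGF cells. Among the detoxification genes Ephx1, microsomal epoxide hydrolase, was the largest rise in each line (1.85, SE 0.20, and 1.98, SE 0.20). Akr1b3, aldose reductase, was the largest fall in WT cells among genes that reached a group mean of 10 CPM (104, 138 and 103 CPM to 28.3, 30.7 and 25.3 CPM, -2.04, SE 0.13), and Aldh3a1, an aldehyde dehydrogenase, the largest in ΔN-VEGF cells (mean 14.2 to 0.836 CPM, -4.08, SE 0.59). In WT cells Aldh3a1 fell from a lower mean of 7.5 CPM to 0.291 CPM (-4.65, SE 0.65).

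The NADPH-supplying genes (8 tested) had 1 fall in WT, Idh2 (-0.42, SE 0.10), and 1 rise and 3 falls in ΔN-VEGF cells, with the transketolase gene Tkt at 0.37 (SE 0.12, and -0.03 when scaled by total counts) and the transaldolase gene Taldo1 at -1.5 (SE 0.31). Without the library that stands apart 4 rose in WT cells, G6pdx (0.84, SE 0.08) and Pgd (1.09, SE 0.13) of the pentose phosphate pathway, Tkt (0.44, SE 0.09) and the malic enzyme gene Me1 (0.40, SE 0.11), and 2 fell, Idh1 (-0.61, SE 0.13) and Idh2 (-0.46, SE 0.09), while 2 rose and 3 fell in ΔN-VEGF cells. Of 16 genes for selenoproteins and their synthesis, 3 rose and 5 fell in WT (5 and 5 without that library) and 4 rose and 6 fell in ΔN-VEGF cells (5 and 6). Sephs2, the selenophosphate synthetase that both Gpx1 and Txnrd1 protein depend on, fell in WT (-1.70, SE 0.34) and ΔN-VEGF cells (-1.97, SE 0.34), from group means of 46.1 and 54.8 CPM to 14.1 and 14 CPM. Its WT normoxia samples were 29.0, 79.6 and 29.6 CPM, and without the library of 79.6 CPM the fall in WT cells was -1.05 (SE 0.14, adjusted p = 3.1e-05, edgeR). Selenos, a selenoprotein of the endoplasmic reticulum, rose in both (1.38, SE 0.17, and 1.86, SE 0.17).

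Scaled by total counts alone, 21 of the 114 rose and 45 fell in WT cells and 21 rose and 55 fell in ΔN-VEGF cells, where 12.8% of all tested genes rose and 32.7% fell in WT and 15.3% rose and 44.5% fell in ΔN-VEGF cells. The regulators then had 5 rises and 1 fall in WT and 6 and 2 in ΔN-VEGF cells, and the detoxification genes 2 and 17 in WT and 2 and 18 in ΔN-VEGF cells. In the group of Hmox1, 3 rose and 3 fell in WT but 1 rose and 5 fell in ΔN-VEGF cells. The glutathione group gave 2 and 4 in WT and 3 and 7 in ΔN-VEGF cells, and the thioredoxin group 6 and 5 in WT and 4 and 5 in ΔN-VEGF cells. The peroxidase group gave 1 and 3 and then 2 and 6, the NADPH-supplying genes 0 and 3 and then 0 and 4, and the selenoprotein genes 2 and 9 and then 3 and 8, in the same order of lines.

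**Figure D4:**
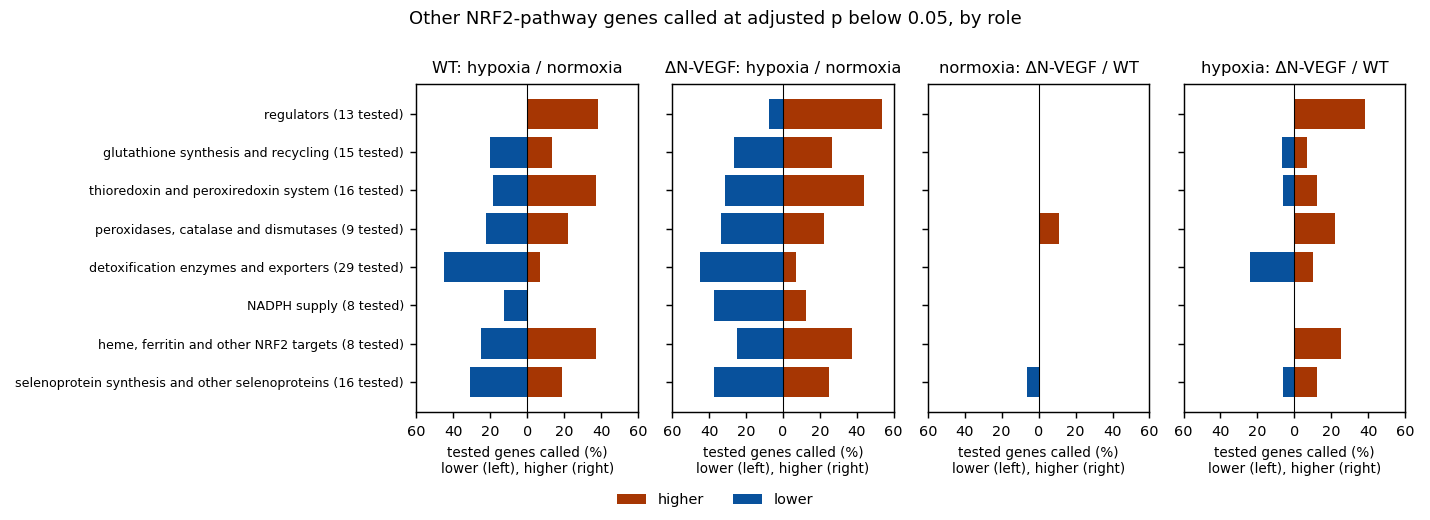
Percent of the tested genes of each role that passed an adjusted p of 0.05 (horizontal axes, lower to the left and higher to the right) in 4 comparisons, for the 114 tested pathway genes other than the 10. In hypoxia the bars of the regulators point mainly to higher levels and those of the detoxification enzymes mainly to lower levels, in both lines, while in normoxia 1 gene was higher and 1 lower between the lines.

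Between the lines in normoxia 1 of the 114 was higher, Gpx7 (log2 difference 1.27, SE 0.18, adjusted p = 0.0041, edgeR), and 1 lower, Selenon (-0.46, SE 0.09, adjusted p = 0.015), and with the replicate number as a block Blvrb, a biliverdin reductase, was higher too (0.63, SE 0.12, adjusted p = 0.027), where over all samples without the block 1.39% of all tested genes were higher and 2.97% lower. Without the library labelled WT normoxia replicate 2 the counts were 43 and 25 of 115, where 25.7% of all tested genes were higher and 23.2% lower. In hypoxia 17 were higher and 10 lower in ΔN-VEGF cells, where 10.8% of all tested genes were higher and 9.36% lower. With 1 sample left out at a time these counts were 12 to 33 and 4 to 20, both the highest without the library labelled WT normoxia replicate 2, where 21.2% of all tested genes were higher and 21.2% lower, and the lower count at 4 to 6 without any 1 hypoxia sample, and with total counts alone they were 9 and 22. Hmox1 was 1.39 higher on the log2 scale (SE 0.13), Sesn2 0.97 (SE 0.12), Gsk3b, a kinase that marks NRF2 for a KEAP1-independent degradation, 0.88 (SE 0.11), and Selenos 0.81 (SE 0.17). Cbr1, a carbonyl reductase, was higher by 0.54 (SE 0.10), and Slc3a2, the heavy chain of the cystine transporter, by 0.48 (SE 0.09, adjusted p = 0.0049, edgeR). With total counts alone Cbr1 (0.32, adjusted p = 0.059) and Slc3a2 (0.26, adjusted p = 0.15) did not pass the test. Among genes that reached a group mean of 10 CPM in hypoxia, the largest falls by role were those of Akr1b3 (-0.96, SE 0.13), Glo1, the glyoxalase (-0.45, SE 0.12), and Prdx2 (-0.43, SE 0.10). Of 13 regulators 5 were higher and 0 lower, and of 29 detoxification enzymes and exporters 3 were higher and 7 lower. With total counts alone the regulators had 2 higher and 2 lower and the detoxification genes 1 and 8, where 4.57% of all tested genes were higher and 22.2% lower.

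The responses to hypoxia differed between the lines for 8 of the 114 pathway genes, with a positive difference for 7 and a negative one for 1, where 2.21% of all tested genes had a positive and 1.15% a negative one. They include Hmox1, Sesn2 and Nfe2l1. With total counts alone the counts were 3 and 9, where 0.998% of all tested genes had a positive and 5.13% a negative one. With 1 sample left out at a time they were 1 to 26 and 0 to 36, the highest without the library labelled WT normoxia replicate 2, where 21.4% of all tested genes had a positive and 23% a negative one, and 1 of the 8, Sesn2, passed the test in all 12 of these fits.

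**Figure D5:**
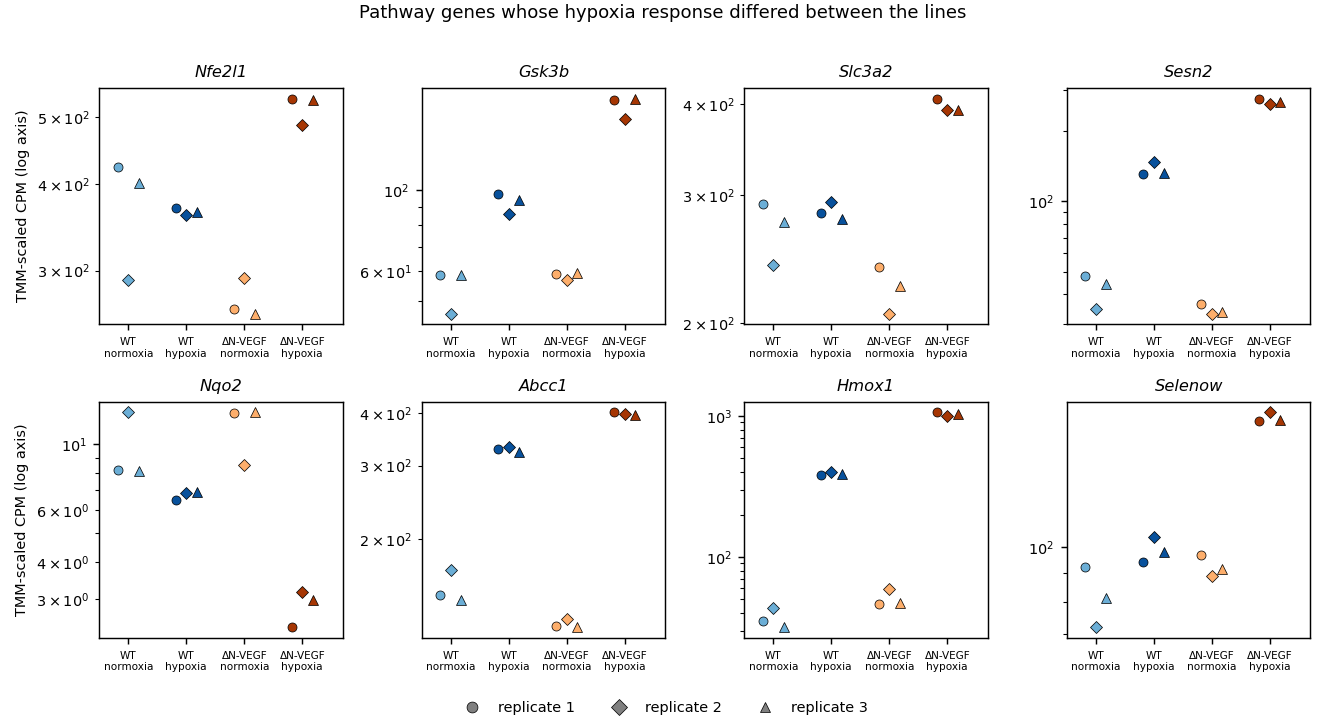
Levels in TMM-scaled CPM (vertical log axes) in the 4 groups (horizontal axes) for the 8 pathway genes whose response differed, with 1 point per sample and its shape giving the replicate number. The ΔN-VEGF hypoxia samples of Hmox1 lie at 999 to 1060 CPM, those of WT hypoxia at 384 to 402 CPM.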

How the data were processed

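RNA-seq counts of 12 samples in 4 groups were used. The authors trimmed 80-bp single reads (Trim Galore, cutadapt 1.10), aligned them to GRCm38 with TopHat2 2.1.0 and Bowtie2 2.2.6, counted reads per gene with HTSeq 0.6.1 and deposited raw counts per gene and sample, with no scaling. The kit (TruSeq RNA v2) marks no strand and the strand setting of the counting is not given in the sources used here, so overlapping genes on opposite strands cannot be told apart, and reads that match several genes can be lost or misplaced. Groups and replicate numbers came from the labels. The labels speak of triplicates without saying that these are separate cultures, so p-values measure the spread between these samples, which may be technical. No library had been deposited more than once, since even the closest pair of a group had a chi-square of 2.86 for each gene.

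The counts were analysed here with edgeR 4.0.16 (limma 3.58.1, R 4.3.3): filterByExpr, TMM scaling, 1 mean per group over all 12 samples, quasi-likelihood tests of 5 comparisons and Benjamini-Hochberg adjustment over 14724 genes, with a call at an adjusted p under 0.05 and no fold threshold. Same-numbered samples of the 2 lines deviated together in normoxia (correlations 0.38, 0.5 and 0.36) but so did samples 1 and 3 (0.36 and 0.35). In hypoxia the correlations were 0.02 to 0.11, and between conditions -0.02 to 0.07. The pairing is thus a hint from the data in 1 comparison, and blocked values stand beside results of the 10 genes where they change a call. Transcript lengths and positions are from GENCODE vM21 (same build). RPKM was computed here. The fits were tested on simulated counts. The simulation used the same spread for all genes and held no library that stands apart. It does not show how the fits behave with such a library.

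The 10 genes, the pathway list of 127 genes and the marker lists were chosen with earlier results of these data known. Named are the 10 genes and, per comparison and role of the pathway list, the largest called rise and fall among genes with a mean of at least 10 CPM in 1 of the groups. Gpx7, Blvrb, Gsk3b among the responses, Aldh3a1 in WT cells and the genes listed by a fit without 1 library fall outside this rule and were named after their values were seen. Alternatives were RLE factors, total counts, no filter, a minimum of 10 counts in all samples, DESeq2 1.42.0, a replicate block, each sample left out, both normoxia samples numbered 2 left out, only the 2 groups compared, and a fold change of at least 2.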

Additional observations from a re-analysis of the deposited data

Results flagged for a closer look

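Of the 114 tested pathway genes, 8 responded differently to hypoxia in the 2 lines by edgeR's interaction test, that is, the log2 change in ΔN-VEGF cells minus that in WT cells had an adjusted p under 0.05. Hmox1 rose more in ΔN-VEGF cells, by 0.93 (SE 0.18, adjusted p = 0.026), and so did Sesn2, by 1.27 (SE 0.17, adjusted p = 0.0048). Nfe2l1, which encodes a relative of NRF2 that controls proteasome genes, had 423, 291 and 401 CPM in WT normoxia and 369, 361 and 365 CPM in WT hypoxia, but 264, 293 and 260 CPM and 532, 487 and 530 CPM in ΔN-VEGF cells, a difference of 0.95 (SE 0.18, adjusted p = 0.022). Slc3a2, the heavy chain of the cystine transporter, had 240 to 291 CPM in WT normoxia and 278 to 293 CPM in WT hypoxia, but 206 to 239 CPM and 392 to 407 CPM in ΔN-VEGF cells, a difference of 0.75 (SE 0.13, adjusted p = 0.016). The difference was 0.77 for Gsk3b (SE 0.15, adjusted p = 0.026), 0.57 for Abcc1, an exporter of glutathione conjugates (SE 0.12, adjusted p = 0.029), and 0.6 for Selenow (SE 0.14, adjusted p = 0.04). Nqo2, a paralog of Nqo1, had the 1 negative difference, -1.46 (SE 0.31, adjusted p = 0.031), and stood at 2.41 to 3.18 CPM in ΔN-VEGF hypoxia against 6.46 to 6.91 CPM in WT hypoxia. With 1 sample left out at a time each of the 8 kept its direction in all 12 fits, but the calls did not hold: Sesn2 passed the test in 12 of the 12, Slc3a2 in 7, Gsk3b, Abcc1 and Hmox1 in 3, Nfe2l1 and Nqo2 in 2 and Selenow in 1. The fit without the library labelled WT normoxia replicate 2 was the 1 in which all 8 passed, and without replicate 1 of ΔN-VEGF hypoxia the adjusted p was 0.094 for Hmox1 and 0.077 for Nfe2l1. Without a filter on low counts the difference was positive for 3 pathway genes and negative for 2, and with total counts alone 3 and 9. With total counts alone the adjusted p was 0.096 for Gsk3b, 0.062 for Nfe2l1, 0.073 for Slc3a2 and 0.16 for Selenow, and with the replicate block it was 0.053 for Selenow.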

How the results depend on the processing

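The 10 genes had 660 to 30458 reads per sample. The SEs of the 10 differences between the lines in hypoxia were 0.09 to 0.43 over 12 samples and 0.05 to 0.06 without both normoxia samples numbered 2. Of 1080 values for the 50 log2 differences of the 10 genes under the alternatives, 923 kept direction and side of the threshold, 21 lost the call, 76 gained one and 60 changed sign. The causes of these changes were not tested.

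Counts of called genes are given as higher and lower. With one sample left out at a time, the 10 genes gave 0 to 3 and 1 to 2 in WT hypoxia, 0 to 1 and 1 to 3 in ΔN-VEGF hypoxia, 0 to 7 and 0 to 0 between the lines in normoxia, 0 to 4 and 0 to 1 between them in hypoxia, and 0 to 1 and 0 to 4 for the difference of responses. The pathway genes gave 20 to 41 and 19 to 40, 26 to 40 and 30 to 43, 1 to 43 and 0 to 25, 12 to 33 and 4 to 20, and 1 to 26 and 0 to 36 in the same order. In each of the 5 comparisons the fit without the library labelled WT normoxia replicate 2 gave the upper values. Without both normoxia samples numbered 2, an alternative that leaves 10 samples, the 10 genes gave 5 and 2 in WT hypoxia, 3 and 3 in ΔN-VEGF hypoxia, 7 and 1 in normoxia, 7 and 2 in hypoxia and 2 and 4 for the responses, and the pathway genes 44 and 47, 50 and 48, 48 and 29, 47 and 30, and 34 and 45. Of all tested genes 32.8% and 32.5%, 35.4% and 36%, 27.8% and 25.8%, 27.5% and 28.3%, and 25.8% and 27% were called in that fit.

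Scaled by total counts alone, the share of higher genes among all calls moved from 49.8% to 28.2% in WT hypoxia, from 50.5% to 25.6% in ΔN-VEGF hypoxia, from 53.5% to 17.1% between the lines in hypoxia and from 65.9% to 16.3% for the responses. The 10 genes then had 5 lower in WT hypoxia, 6 lower in ΔN-VEGF hypoxia and 0 higher between the lines in hypoxia, and the pathway genes 45 lower in WT hypoxia, 4 and 2 in normoxia, 9 and 22 in hypoxia and 3 and 9 for the responses. Of all 14724 tested genes, 178 were then higher and 384 lower between the lines in normoxia. The shares were 32.7% lower in WT hypoxia and 44.5% lower in ΔN-VEGF hypoxia. They were 4.57% and 22.2% between the lines in hypoxia and 0.998% and 5.13% for the responses. Without a filter on low counts the 10 genes had 1 lower in WT hypoxia and 0 higher between the lines in hypoxia, and the pathway genes 3 and 0 in normoxia and 3 and 2 for the responses. Of all 30324 genes tested in that fit, 8.51% were lower in WT hypoxia, 3.98% higher between the lines in hypoxia, 0.742% and 1.08% called in normoxia and 0.762% and 0.712% for the responses. With at least 10 counts in all samples the pathway genes had 2 lower in normoxia, where 3.17% of all tested genes were lower. DESeq2 gave 2 of the 10 higher between the lines in hypoxia, and of the pathway genes 6 and 9 in normoxia and 13 and 3 for the responses, where it called 2.69% and 5.47% and 6.99% and 3.33% of its tested genes. The replicate block gave 1 of the 10 higher in ΔN-VEGF hypoxia, 2 higher between the lines in hypoxia and 2 pathway genes higher in normoxia, where 28%, 11.6% and 1.55% of all tested genes were higher. It changed no other count by over 1.5 times. Fits of only the 2 groups compared gave 1 lower in WT hypoxia, 1 higher in ΔN-VEGF hypoxia and 7 and 2 between the lines in hypoxia, with the block or without, where 11.1% (5.09% with the block), 31.9% (31.6%), and 27.9% and 29.1% (30% and 31.2%) of all tested genes were called. A fold change of at least 2 left 0 lower in WT hypoxia, 1 lower in ΔN-VEGF hypoxia and 0 higher between the lines in hypoxia, and of the pathway genes 12 and 15, 17 and 16, 0 lower in normoxia, 3 and 1 in hypoxia and 1 higher for the responses, where 9.17% and 6.53%, 14.6% and 12.7%, 1.55% lower, 2.87% and 3.94%, and 0.89% higher of all tested genes were called in the same order.

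The sign of several log2 differences changed, all of them uncalled over all samples. With total counts, Keap1 was at -0.05 and Gclc at -0.06 in WT hypoxia, Keap1 at -0.09 and Gclc at -0.13 in ΔN-VEGF hypoxia, Gclc at -0.05 and Gpx1 at -0.02 between the lines in hypoxia, and Keap1 at -0.04, Gclc at -0.07, Txnrd1 at -0.14 and Srxn1 at -0.01 for the responses. Without both normoxia samples numbered 2, WT hypoxia gave 0.05 for Nqo1, 0.38 for Gclm, 0.9 for Gsr, 0.04 for Txnrd1, 0.08 for Srxn1 and 0.26 for Prdx1, ΔN-VEGF hypoxia 0.28 for Gclm and 0.02 for Srxn1, and the responses -0.09 for Gclc, -0.1 for Gclm, -0.35 for Txnrd1 and -0.06 for Srxn1. The block gave 0.16 for Gsr in WT hypoxia (0.25 over the 2 groups alone), 0.05 for Gclm in ΔN-VEGF hypoxia and -0.01 for Txnrd1 in the responses. Nfe2l2 and Gclm were at 0 in ΔN-VEGF hypoxia with at least 10 counts in all samples, and Keap1 at 0.01 between the lines in hypoxia with RLE factors or DESeq2.

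With one sample left out, values of WT hypoxia ranged from -0.05 to 0.55 for Gclc, -0.69 to 0.38 for Gclm, -0.38 to 0.9 for Gsr, -0.73 to 0.05 for Nqo1, -0.55 to 0.26 for Prdx1, -0.45 to 0.08 for Srxn1 and -0.92 to 0.04 for Txnrd1. In ΔN-VEGF hypoxia they ranged from -0.18 to 0.28 for Gclm, -0.12 to 0.02 for Nfe2l2 and -0.16 to 0.02 for Srxn1. Between the lines they ranged in normoxia from -0.16 to 0.46 for Gclc, -0.07 to 1.04 for Gclm and -0.28 to 0.1 for Keap1, and in hypoxia from -0.04 to 0.04 for Keap1. For the responses they ranged from -0.29 to 0.33 for Gclc, -0.42 to 0.68 for Gclm, -1.19 to 0.11 for Gsr, -0.11 to 0.27 for Keap1, -0.18 to 0.35 for Srxn1 and -0.62 to 0.35 for Txnrd1.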
